A study of Rattus norvegicus with 12 samples.

Results

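The heat shock proteins and their co-chaperones were followed in rat cerebellar cultures exposed to acetamiprid (ACE), a neonicotinoid insecticide that acts on nicotinic acetylcholine receptors. Members were the array probes whose gene name on the array design begins with the root of an HSP70, HSP110, HSP90, small heat shock protein (HSPB), mitochondrial chaperonin or J-domain (DNAJA, DNAJB, DNAJC) family, or is one of the BAG genes 1 to 6 or of the heat shock factors Hsf1, Hsf2 and Hsf4, with Hspb7 left out. This rule used names only and took 97 of 30367 probes, for 75 of 26214 gene names. The cells were neuron-enriched primary cultures from the cerebellum of Sprague-Dawley rats at postnatal day 1, pooled from the pups of 1 litter for each culture experiment. Control cultures received the solvent DMSO at 0.001%, and ACE cultures received 1 µM ACE in the same solvent from 2 to 16 days in vitro, when RNA was taken. There were 6 culture experiments, each with 1 control array and 1 ACE array that share a replicate number and are called a pair, so that the control versus ACE comparison (CvA) rests on 6 pairs.

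Chaperones bind unfolded stretches of proteins and release them for refolding, assembly or degradation. HSP70 proteins work in cycles that J-domain proteins start, by stimulating ATP hydrolysis, and that HSP110 and BAG proteins close, by exchanging the nucleotide, while HSP90 acts later on selected clients such as kinases and steroid receptors, and small heat shock proteins hold unfolded proteins without using ATP. When unfolded proteins accumulate in the cytosol, the factor Hsf1 binds heat shock elements in the promoters of many of these genes, and unfolded proteins in the endoplasmic reticulum act on endoplasmic reticulum stress elements in others. Neurons depend on the same machinery for synaptic vesicles, where Hspa8 strips clathrin coats with the help of Dnajc6 (auxilin) and Dnajc5 (cysteine string protein) guards vesicle proteins.

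Since these elements are the textbook sites of the response to unfolded protein, the promoters of 6 members that hold an exact match to one of them are shown. RefSeq promoters (build GRCr8, 250 bases before to 50 after a start site) were held for 57 of the 75 genes. The letters TTCNNGAANNTTC, or GAANNTTCNNGAA for the same site on the other strand, were found in the promoters of 5 members, Dnaja1, Hspa8, Hspd1, Hspe1 and Hsph1, which is 8.77% of the matched members beside 0.798% of all 33469 promoters. The letters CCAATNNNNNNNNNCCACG, or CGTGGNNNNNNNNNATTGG on the other strand, were found in those of Dnajc3, Hsp90b1 and Hspa5, beside 0.0657% of all promoters. No promoter entry was held for Bag4, Dnaja2, Dnajb4, Dnajc11, Dnajc12, Dnajc15, Dnajc2, Dnajc22, Dnajc24, Dnajc5b, Dnajc8, Hsf1, Hsf4, Hsp90aa1, Hspa12a, Hspa1b, Hspb11 and Hspb2. The 250 bases before the start site follow, 5′ to 3′, with the matched letters in capitals. The windows of Hspd1 and Hspe1, a head-to-head pair of genes, overlap and hold the same matched stretch on opposite strands.
Hsph1, GRCr8 chr12:10427118-10427367, plus strand: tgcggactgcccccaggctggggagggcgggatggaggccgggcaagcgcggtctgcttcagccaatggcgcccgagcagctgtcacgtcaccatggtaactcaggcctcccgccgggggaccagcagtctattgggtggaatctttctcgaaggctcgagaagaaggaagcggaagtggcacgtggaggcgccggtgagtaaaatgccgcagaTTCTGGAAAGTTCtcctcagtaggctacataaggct
Hspa8, GRCr8 chr8:50080264-50080513, plus strand: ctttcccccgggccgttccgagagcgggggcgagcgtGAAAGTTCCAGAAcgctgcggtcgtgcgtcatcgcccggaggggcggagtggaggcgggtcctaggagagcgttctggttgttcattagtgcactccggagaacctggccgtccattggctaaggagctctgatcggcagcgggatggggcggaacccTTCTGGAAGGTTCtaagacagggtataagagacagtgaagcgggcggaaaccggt
Hspe1, GRCr8 chr9:64084077-64084326, plus strand: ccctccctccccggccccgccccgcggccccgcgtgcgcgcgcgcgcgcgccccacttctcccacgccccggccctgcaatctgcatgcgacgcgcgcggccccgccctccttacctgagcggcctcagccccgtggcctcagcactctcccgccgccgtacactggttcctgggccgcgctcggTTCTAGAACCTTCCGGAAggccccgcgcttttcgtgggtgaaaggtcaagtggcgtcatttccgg
Hspd1, GRCr8 chr9:64084038-64084287, minus strand: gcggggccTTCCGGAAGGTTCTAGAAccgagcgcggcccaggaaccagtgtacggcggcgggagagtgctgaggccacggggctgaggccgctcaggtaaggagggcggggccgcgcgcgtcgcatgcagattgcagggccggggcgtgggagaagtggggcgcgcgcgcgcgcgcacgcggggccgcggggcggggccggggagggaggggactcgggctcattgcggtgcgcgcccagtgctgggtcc
Hspa5, GRCr8 chr3:38452766-38453015, plus strand: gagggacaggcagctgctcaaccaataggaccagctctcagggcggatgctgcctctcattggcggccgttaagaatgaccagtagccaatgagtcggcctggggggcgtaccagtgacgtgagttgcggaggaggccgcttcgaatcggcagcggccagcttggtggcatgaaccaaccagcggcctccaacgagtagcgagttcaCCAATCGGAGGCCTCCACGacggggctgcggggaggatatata
Hsp90b1, GRCr8 chr7:23012294-23012543, minus strand: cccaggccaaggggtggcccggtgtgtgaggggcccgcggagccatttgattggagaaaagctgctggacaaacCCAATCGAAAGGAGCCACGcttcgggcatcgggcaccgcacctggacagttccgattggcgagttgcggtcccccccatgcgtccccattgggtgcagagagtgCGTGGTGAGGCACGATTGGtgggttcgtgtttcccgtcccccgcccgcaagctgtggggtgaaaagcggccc

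In CvA, the transcripts of these 8 genes lay close to the control level. The 9 tested probes of the genes with a heat shock element differed by -0.08 to 0.07 on the log2 scale, with a median of -0.03, and the 3 probes of the genes with the endoplasmic reticulum element by -0.02 to 0.02. A probe was tested where its signal passed a filter on low values (the 20th percentile of an array, exceeded on at least 7 of the 12), and each difference is the mean over 6 pairs of ACE minus control on the scale of quantile-normalised log2 signal. Of the 12 probes of both groups, 1 had an unadjusted limma p under 0.05 (Hspa8, described with its family), beside 16.6% of all probes tested. An exact match describes letters in a window and is not evidence of a bound factor.

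Among all members, no probe passed the adjusted threshold. Of the 97 probes, 89 (for 71 genes) passed the filter and were tested, and 87 of these were well above background on all 12 arrays. The 8 probes that did not pass were well above background on at most 1 array of each group, and they include every probe of Hspa12b, Dnajb7, Dnajc5b and Dnajc5g. With limma and Benjamini-Hochberg adjustment over all 23796 tested probes, 0 members were under 0.05, as were 0 probes of the array (0%), and the lowest adjusted p of a member was 0.143. The exact signed-rank test adjusted over all probes gave 0 members, at a lowest adjusted p of 0.270. Its smallest p over 6 pairs is 0.03125, so the adjusted threshold could hardly be reached and this count decides nothing. Before adjustment, 17 member probes (19.1%) had a limma p under 0.05, beside 16.6% of all probes tested. Of these, 9 were higher with ACE, beside 6.9% of all probes, and 8 were lower, beside 9.73%, so that 52.9% of them were higher. Scaling by the 75th percentile of each array instead of quantiles shifted the median of all probes by -0.03. The higher share of the called members was then 26.7% (4 higher and 11 lower), while 3.39% of all probes were higher and 14.3% lower. The count of 9 higher members was 12, 2, 5, 5, 4 and 3 without replicates 1, 2, 3, 4, 5 and 6 in turn, and the count of 8 lower members was 5 without replicate 4. Without the replicate block, 0 were higher and 1 lower, beside 0.185% and 0.155% of all probes. The direction was the same in all 6 pairs for 11 members (12.4%), beside 11.6% of all probes, which is what the smallest p of an exact signed-rank test over 6 pairs (0.03125) requires. Of these, 3 were higher, beside 4.72% of all probes, and 8 lower, beside 6.86%. By the sign of the mean alone, 36 members were higher (40.4%, beside 47.8% of all probes) and 53 lower (beside 52.2%). The members' shares were thus near those of the whole array. The members' median difference was -0.02, beside -0.00 over all probes, and 1 member probe (Hspb3) differed by at least 1.5-fold, beside 1.72% of all probes.

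The intervals of the differences were narrow. For 82 of the 89 members the 95% interval of the difference lay within 1.2-fold in either direction, beside 65.9% of all probes, and for 88 it lay within 1.5-fold, beside 88.9%. The exception to the second bound was Hspb3. The 2 sets were not matched for signal, as 87 of 97 member probes but 20181 of all 30367 were well above background on all 12 arrays. The median size of a member's difference was 0.04 on the log2 scale, beside a median SD of 0.20 between the control arrays, and 3 of 89 members (3.37%) differed by more than their own control SD, beside 2.91% of all probes. The range of the 6 ACE arrays lay apart from that of the 6 control arrays in 0 members, beside 0.0126% of all probes. Each pair shared 1 slide, on which control always took place 1 and ACE place 3, so place and exposure cannot be told apart. The RNA came from whole cultures, in which fewer cells of a type and less RNA per cell cannot be told apart either.

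**Figure D1:**
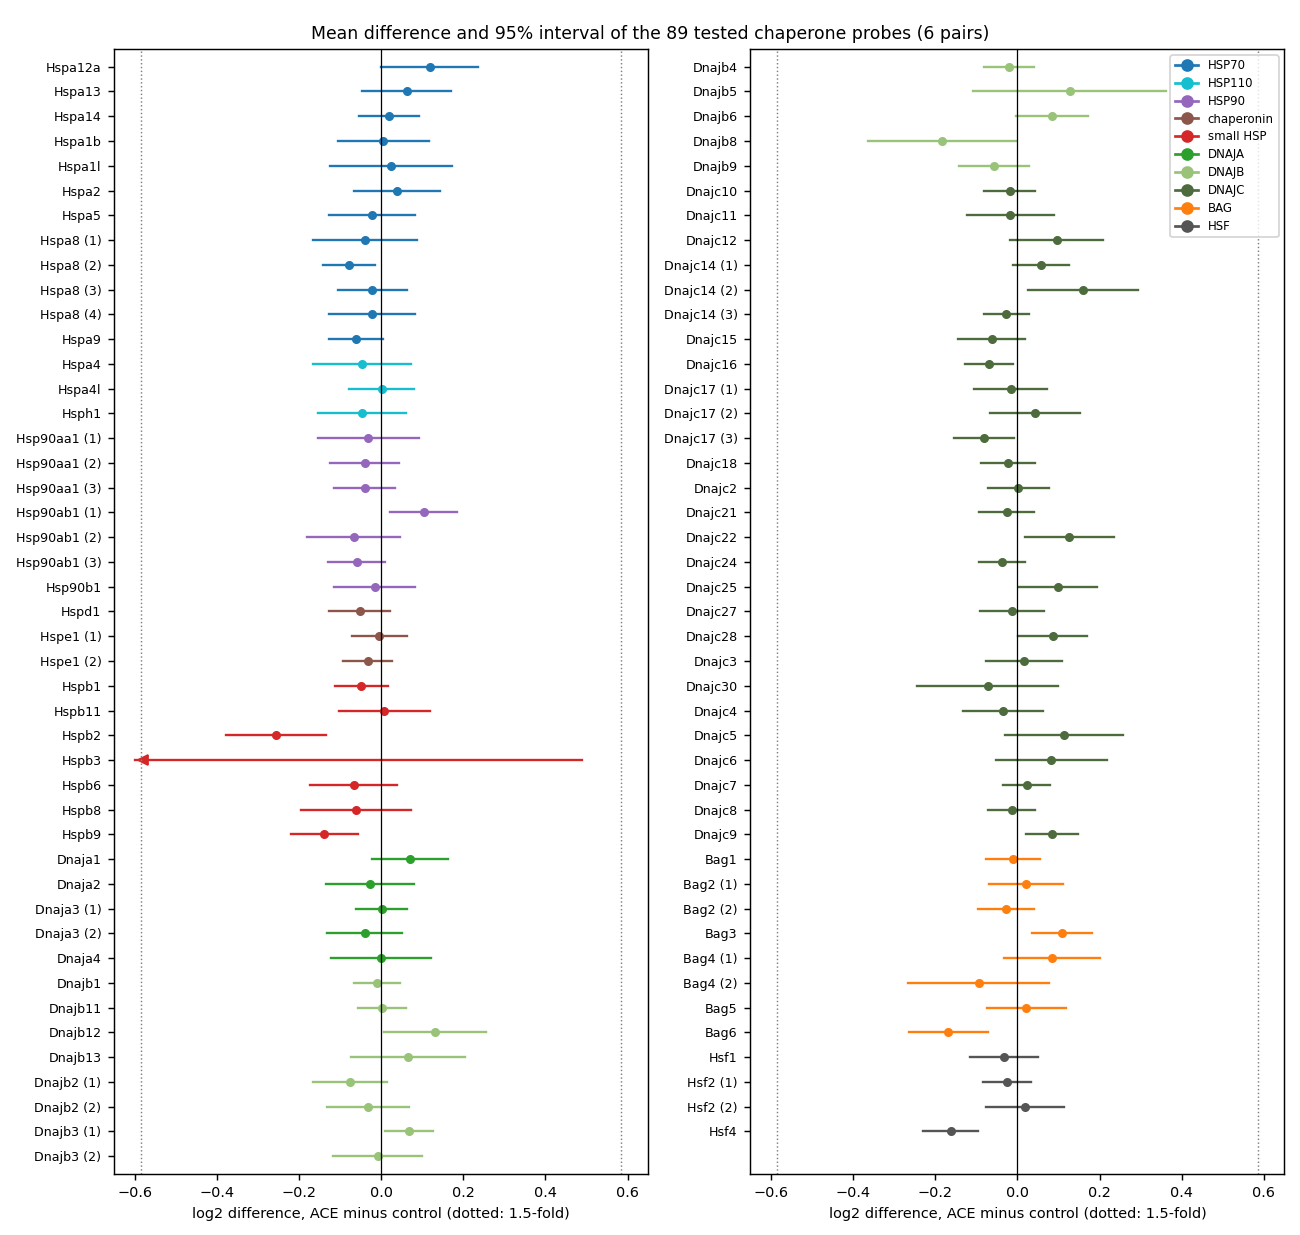
Mean CvA difference (ACE minus control, log2 scale, 6 pairs) of each tested member probe with its 95% limma interval, coloured by family; dotted lines mark 1.5-fold, numbers in brackets tell probes of 1 gene apart, and the arrow marks Hspb3, whose mean of -1.24 lies off the axis. All intervals but that of Hspb3 lie between the dotted lines.

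The cultures held the cells that the labels name, together with glia. Of the neuronal markers tested, 13 of 14 genes were well above background on all 12 arrays, as were 10 of 12 granule cell and 8 of 9 Purkinje cell genes, 11 of 11 astrocyte, 13 of 13 oligodendrocyte and 13 of 13 microglial genes. The same held for 10 of 10 ciliated ependymal and 7 of 10 meningeal fibroblast genes. Skeletal muscle genes were also present, with 24 of 36 tested genes well above background on all 12 arrays, and the mean log2 signal of that list ranged from 6.80 to 9.51 in control and from 6.70 to 8.54 in ACE cultures. Its highest values were those of control replicates 1, 2 and 6 and ACE replicate 1. Of the 40 tested probes of the list, 37 had a lower mean with ACE, with a median of -0.51, and the list mean was lower in 5 of 6 pairs. Several small heat shock proteins are known from muscle. Other lists had smaller shifts. Lower means were found for 15 of 18 astrocyte (median -0.07) and 9 of 11 ependymal probes (-0.08), beside 52.2% of all probes. Higher means were found for 13 of 17 neuronal (0.05) and 14 of 18 microglial probes (0.08), beside 47.8%. The medians of the granule cell, Purkinje cell, oligodendrocyte and fibroblast lists lay between -0.04 and 0.02.

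The HSP70 family holds the core of the system, and most of its members were near the control level. Hspa1b, the stress-inducible cytosolic HSP70, had, at the probe that gave signal, control values with a lowest of 8.70, a median of 8.90 and a highest of 9.65, and ACE values of 8.60, 8.98 and 9.58. Replicates 1 and 2 were the highest in both groups, 3 pairs were higher and 3 lower with ACE, and the mean difference was 0.01 ± 0.05 (SE). The 95% interval was -0.10 to 0.12. Hspa1a, its near-identical copy, had no probe under that name, so the Hspa1b probe may also read Hspa1a transcripts. A second Hspa1b probe was well above background on 0 of the 12 arrays, with means of 1.39 in control and 1.38 in ACE cultures, and was not tested. Hspa5, the HSP70 of the endoplasmic reticulum and a standard readout of stress there, ranged from 14.55 to 14.82 in control and from 14.42 to 14.90 in ACE cultures, with medians of 14.63 and 14.63. Its difference was -0.02 ± 0.04 (SE), lower in 4 of 6 pairs. Hspa9, the mitochondrial HSP70, was lower in 5 of 6 pairs with a difference of -0.06 ± 0.03 (SE), at a limma p of 0.065.

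Hspa8, the constitutive cytosolic HSP70, was read by 4 probes. The probe with the difference furthest from 0 had control values of 17.02, 17.13 and 17.20 (lowest, median, highest) and ACE values of 16.97, 17.05 and 17.17. It was lower with ACE in 6 of 6 pairs by 0.08 ± 0.03 (SE), at a limma p of 0.0239 (adjusted p 0.238). The other 3 probes differed by -0.04 to -0.02 and were lower in 3, 4 and 4 of 6 pairs. All 4 means were therefore below 0, and 1 of the 4 probes had the same direction in every pair. Over the 12 tested HSP70 probes, 6 were higher and 6 lower, with a median of -0.01. The nucleotide exchange factors of the HSP110 family gave -0.05 for Hspa4, 0.00 for Hspa4l and -0.05 for Hsph1. Hsph1, which carries the heat shock element printed above and is strongly heat-inducible, ranged from 8.07 to 8.66 in control and from 8.04 to 8.63 in ACE cultures. It was lower in 5 of 6 pairs, with a 95% interval of -0.15 to 0.06.

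The HSP90 family gave differences below 0 at 6 of 7 probes of 3 genes, beside 52.2% of all probes. The inducible cytosolic Hsp90aa1 differed by -0.03 to -0.04 at its 3 probes, each lower in 4 of 6 pairs. Hsp90b1, the HSP90 of the endoplasmic reticulum, differed by -0.02 ± 0.04 (SE). The constitutive Hsp90ab1 differed in opposite directions at its probes. The probe at rn4 chr9:11038902-11038961 read 15.61, 15.74 and 16.04 in control (lowest, median, highest) and 15.71, 15.89 and 16.14 in ACE cultures, and was higher in 5 of 6 pairs by 0.10 ± 0.03 (SE), at a limma p of 0.0198. This probe was designed on an Ensembl transcript. The probes at chr9:11037357-11037519 and chr9:11038501-11038672, designed on the RefSeq transcript, were each lower in 5 of 6 pairs, by 0.07 and 0.06. The direction for Hsp90ab1 therefore depended on the probe.

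Such opposite means occurred in 8 of the 12 members with several tested probes, namely Hsp90ab1, Dnajb3, Dnajc17, Dnajc14, Dnaja3, Hsf2, Bag2 and Bag4. Dnajc14, a J protein of the endoplasmic reticulum membrane, gave 0.06, 0.16 and -0.03 at its 3 probes. The second of these was higher in 5 of 6 pairs and the third lower in 5 of 6. The limma p of the second was 0.0269. Dnajc17, a nuclear J protein linked to splicing, gave -0.02, 0.04 and -0.08, and the last probe was lower in 6 of 6 pairs. The files place the probe with the mean of 0.04 on chromosome 6 and the others on chromosome 3, so that its target is uncertain. Bag4, a BAG protein also known as silencer of death domains, gave 0.08 and -0.09, with p-values of 0.132 and 0.233. The 2 probes of Hsf2 gave -0.03 and 0.02, those of Dnaja3 0.00 and -0.04, and those of Bag2 0.02 and -0.03.

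**Figure D2:**
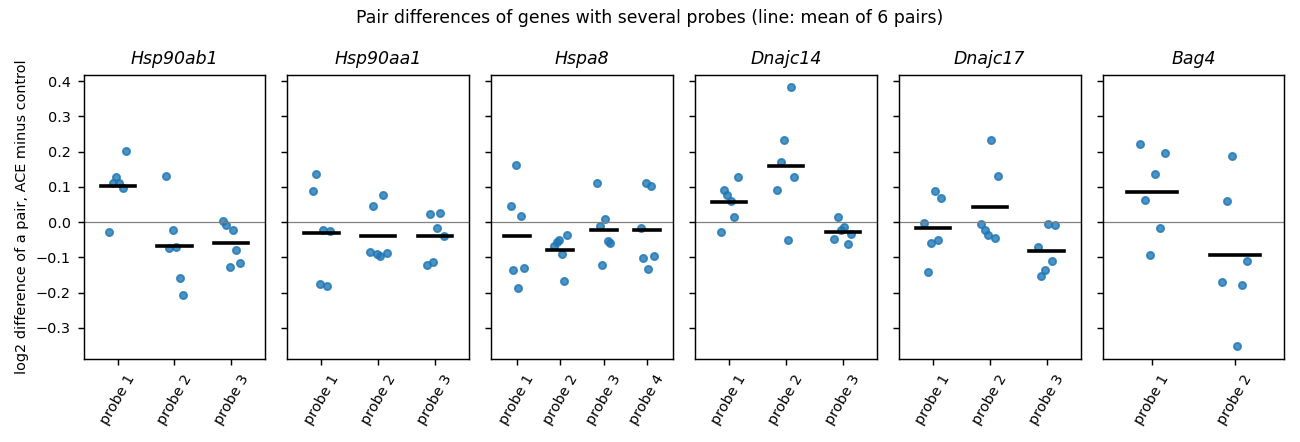
CvA difference of each pair (points, log2 scale, ACE minus control) for each probe of 6 members with several tested probes, and the mean of 6 pairs (lines). The probes of Hspa8 and of Hsp90aa1 have means on 1 side of 0, while those of Hsp90ab1, Dnajc14, Dnajc17 and Bag4 lie on both sides.

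The mitochondrial chaperonin Hspd1 and its lid Hspe1, whose shared promoter region is printed above, gave -0.05 for Hspd1 and -0.00 and -0.03 for the 2 probes of Hspe1. Hspd1 was lower in 5 of 6 pairs, with values from 14.56 to 15.24 in control and from 14.49 to 15.16 in ACE cultures. Over the 10 tested probes of mitochondrial members, 8 means were below 0 (beside 52.2% of all probes), with a median of -0.04, and 1 (Dnajc28, higher) had an unadjusted p under 0.05, beside 16.6%. The list of endoplasmic reticulum members, which does not hold Dnajc14, had 10 tested probes with a median of -0.01. At that level 2 were higher (Dnajb12, Dnajc25; beside 6.9% of all probes) and 1 was lower (Dnajc16, beside 9.73%).

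The small heat shock proteins held the 2 lowest means of the module, Hspb3 and Hspb2. Of the 7 tested probes, 6 means were below 0, beside 52.2% of all probes, with a median of -0.07. Of these, 2 (Hspb2 and Hspb9) had an unadjusted p under 0.05, beside 9.73% of all probes, and the skeletal muscle list had the same direction, with a median of -0.51. The sequences of the arrays' probes for the members with the clearest or widest differences are shown, since each value below is the signal of that stretch alone. They are given 5′ to 3′ with the position in rn4, the build of the files, and no part is marked. The Bag6 stretch is longer in the genome than the 60-base probe.
Hspb2, rn4 chr8:54105825-54105884, minus strand: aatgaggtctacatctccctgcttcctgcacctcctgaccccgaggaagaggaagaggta
Hspb3, rn4 chr2:45078729-45078788, minus strand: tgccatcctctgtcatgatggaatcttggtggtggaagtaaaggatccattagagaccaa
Hsf4, rn4 chr19:35090974-35091033, plus strand: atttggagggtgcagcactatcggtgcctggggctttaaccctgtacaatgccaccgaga
Bag6, rn4 chr20:3740653-3740788, minus strand: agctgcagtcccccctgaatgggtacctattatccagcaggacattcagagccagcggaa

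Hspb2, a small heat shock protein that binds the myotonic dystrophy kinase and is best known from heart and skeletal muscle, read 9.42, 10.39 and 11.31 in control (lowest, median, highest) and 9.30, 10.06 and 11.10 in ACE cultures. Replicate 1 was the highest and replicate 3 the lowest in both groups, and the ranges overlapped almost fully, but the ACE array was the lower one in 6 of 6 pairs, by 0.11 to 0.41. The mean difference was -0.26 ± 0.05 (SE), or 1.19-fold, at a limma p of 0.00185 (adjusted p 0.143). Without pairs 1, 2 and 6, whose control arrays had the highest muscle list means, the difference was -0.21, a setting chosen after seeing the data that leaves the unadjusted p at 0.0721. The part of muscle transcripts in the Hspb2 values was not tested.

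Hspb3, a muscle-restricted partner of Hspb2, was measured poorly. It was well above background on 4 control and 3 ACE arrays. The control values of replicates 1 to 6 were 6.97, 7.38, 3.55, 1.63, 2.99 and 5.32, and the ACE values were 5.46, 3.89, 3.72, 2.68, 3.04 and 1.60. Replicates 1, 2 and 6 were lower with ACE (differences of -1.51, -3.49 and -3.71), while the other 3 pairs were higher by 0.05 to 1.05. The mean of -1.24 ± 0.72 (SE) had a 95% interval of -2.97 to 0.49 and a limma p of 0.132. With 1 replicate left out it ranged from -1.70 to -0.75. The muscle list differed in the same pairs 1, 2 and 6, by -0.56, -2.43 and -0.98, and by -0.11 to 0.00 in pairs 3 to 5. The mean over pairs 3 to 5 was 0.42, from low signals of 1.63 to 3.72, so that no direction is read from it. The part of muscle transcripts in the Hspb3 values was not tested.

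The other small heat shock proteins differed less. Hspb9, known from testis, read 6.31, 7.74 and 8.79 in control (lowest, median, highest) and 6.17, 7.60 and 8.79 in ACE cultures. It was lower in 6 of 6 pairs by 0.01 to 0.22, with a mean of -0.14 ± 0.03 (SE) and a limma p of 0.00579 (adjusted p 0.172). Without pairs 1, 2 and 6, the same setting chosen after seeing the data, its difference was -0.19 at an unadjusted limma p of 0.0222. The part of muscle transcripts in the Hspb9 values was not tested. Hspb1 (HSP27), the heat-inducible member of astrocytes and muscle, differed by -0.05 ± 0.03 (SE), Hspb6 by -0.07 ± 0.04 (SE) and Hspb8, the partner of Bag3 in chaperone-assisted autophagy, by -0.06 ± 0.06 (SE). Hspb11, a member of the list by its older name (RefSeq now lists it as Ift25, a protein of cilia), differed by 0.01. Without the same pairs the differences of Hspb1, Hspb6 and Hspb8 were -0.05, -0.05 and -0.00.

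**Figure D3:**
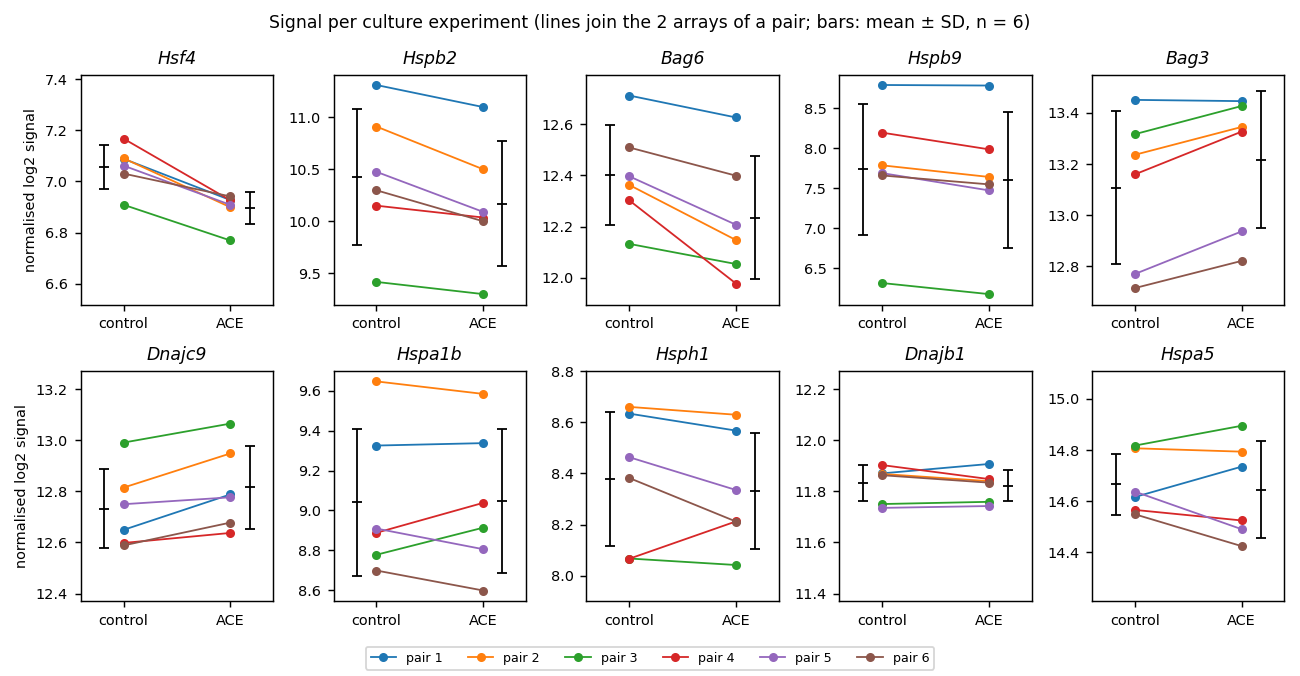
Normalised log2 signal of 10 member probes in the 6 pairs (coloured lines join the control and ACE arrays of a pair), with the mean ± SD of each group beside the points (bars, n = 6); each panel has its own axis. Hsf4, Hspb2, Bag6 and Hspb9 are lower with ACE in 6 of 6 pairs, Dnajc9 is higher in 6 and Bag3 in 5, and the lines of Hspa1b, Hsph1, Dnajb1 and Hspa5 run in both directions.

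Of the heat shock factors, Hsf4 had the mean furthest from 0. Hsf1, the main sensor of unfolded protein in the cytosol, differed by -0.03 ± 0.03 (SE), lower in 4 of 6 pairs, and ranged from 10.70 to 10.91 in control and from 10.65 to 10.87 in ACE cultures. Hsf4, a factor known from the lens, read 6.91, 7.08 and 7.17 in control (lowest, median, highest) and 6.77, 6.92 and 6.94 in ACE cultures. Only the control array of replicate 3 (6.91) lay within the ACE range, and the ACE array was lower in 6 of 6 pairs, by 0.09 to 0.24. The mean difference was -0.16 ± 0.03 (SE), or 1.12-fold, which is larger than the control SD of 0.09. It had the lowest unadjusted limma p of the module, 0.000771, with an adjusted p of 0.143. Its direction and an unadjusted p of at most 0.0389 held under each of the 17 alternative settings tried, with values from -0.24 to -0.12.

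Among the BAG proteins, Bag6 and Bag3 had means of opposite sign. Bag6, which hands tail-anchored and misfolded proteins on for membrane insertion or degradation, read 12.13, 12.38 and 12.71 in control (lowest, median, highest) and 11.98, 12.18 and 12.63 in ACE cultures. It was lower in 6 of 6 pairs, by 0.08 to 0.33, although replicate 1 was the highest in both groups. The mean was -0.17 ± 0.04 (SE), or 1.12-fold, at a limma p of 0.00475 (adjusted p 0.165). Bag3, which is induced by Hsf1 and delivers clients of HSP70 to autophagy, read 12.71, 13.20 and 13.45 in control and 12.82, 13.34 and 13.45 in ACE cultures. The array of replicate 1 was practically equal in both groups and the other 5 pairs were higher with ACE, by 0.11 to 0.17. The mean was 0.11 ± 0.03 (SE), at a limma p of 0.0101 (adjusted p 0.193). Bag1, Bag2 and Bag5, by contrast, had means between -0.03 and 0.02.

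The J-domain proteins made up the largest class. The heat-inducible Dnaja1 and Dnajb1 differed by 0.07 ± 0.04 and by -0.01 ± 0.02 (SE). Dnajb1 ranged from 11.74 to 11.90 in control and from 11.74 to 11.91 in ACE cultures, with 3 pairs higher and 3 lower. Of the 45 tested probes of the DNAJA, DNAJB and DNAJC classes, 10 had an unadjusted p under 0.05, 7 of them higher with ACE, beside 16.6% and 6.9% of all probes. These 7 are part of the 9 higher calls whose count depended on the scaling and on single replicates, as given above. Dnajc9, which also acts as a histone chaperone, read 12.59, 12.70 and 12.99 in control and 12.64, 12.78 and 13.07 in ACE cultures, and was higher in 6 of 6 pairs by 0.03 to 0.14. Its mean was 0.08 ± 0.03 (SE), at a limma p of 0.0174 (adjusted p 0.217).

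Dnajc25 and Dnajb3 were the other members higher in 6 of 6 pairs, by means of 0.10 and 0.07, the latter at 1 of its 2 probes. Of the Dnajc25 pairs, that of replicate 4 differed by 0.29 and the other 5 by 0.03 to 0.08, and the mean was 0.06 without replicate 4. Dnajc16 was lower in 6 of 6 pairs by a mean of 0.07. Dnajc24, which takes part in diphthamide synthesis, was also lower in 6 of 6 pairs, by 0.04, but with an unadjusted p of 0.155. The remaining probes with an unadjusted p under 0.05 were picked out after their values were seen. They were those of Dnajb12 (0.13), Dnajc22 (0.13) and Dnajc28 (0.09), higher with ACE, and of Dnajb8 (-0.18), which was well above background on 3 control and 2 ACE arrays. The co-chaperones of synaptic vesicles gave 0.11 ± 0.06 (SE) for Dnajc5 and 0.08 ± 0.06 for Dnajc6. Both were higher in 4 of 6 pairs, with p-values of 0.102 and 0.189. The Dnajc5 mean was 0.07 without replicate 5, and the Dnajc6 mean 0.05 without replicate 1 or 2.

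The textbook targets of Hsf1, a list that also holds the mainly constitutive Hspa8, had 18 tested probes of 12 members, with a median difference of -0.03, beside -0.00 over all probes. The intervals of all 18 lay within 1.2-fold. Of these probes, 1 was higher (Bag3) and 1 lower (the Hspa8 probe above) at an unadjusted p under 0.05, or 11.1% together, which lies below the 16.6% of all probes. The mean signal of this list ranged from 12.68 (replicate 6) to 13.11 (replicate 1) in control cultures, and the same replicates were lowest and highest with ACE. Between the arrays of a pair it differed by -0.04 to 0.02. The culture experiments, each on its own slide, thus lay further apart than control and ACE within an experiment.

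Many single members also varied between culture experiments. Each experiment had its own slide, and replicates 1, 2 and 3 each had their own scan batch. Experiment, slide and scan batch therefore cannot be told apart in these levels. Over all probes, the deviations of the 2 arrays of a pair from their group means correlated at 0.449 to 0.912, and over the members at 0.469 to 0.972. Arrays of different pairs correlated at -0.439 to 0.390 over all probes and at -0.739 to 0.808 over the members, so that the ranges over the members overlapped. The members with the largest SD between control arrays, among those well above background on all 12 arrays, were Hspb9 (0.82), Hspb2 (0.65), Hspb6 (0.56), Dnajc6 (0.48) and Hspa4l (0.47). Hspb6, a small heat shock protein of muscle and astrocytes, ranged from 11.77 to 13.03 in control and from 11.68 to 12.86 in ACE cultures. Hspa4l ranged from 11.03 to 12.35 in control and from 11.07 to 12.25 in ACE cultures, and its largest difference within a pair was 0.10. The mean of the astrocyte list ranged from 12.37 to 13.48 over the same control arrays, with replicate 1 highest and replicate 6 lowest in both groups, as for Hspa4l. Whether the share of astrocytes bears on these levels was not tested.

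**Figure D4:**
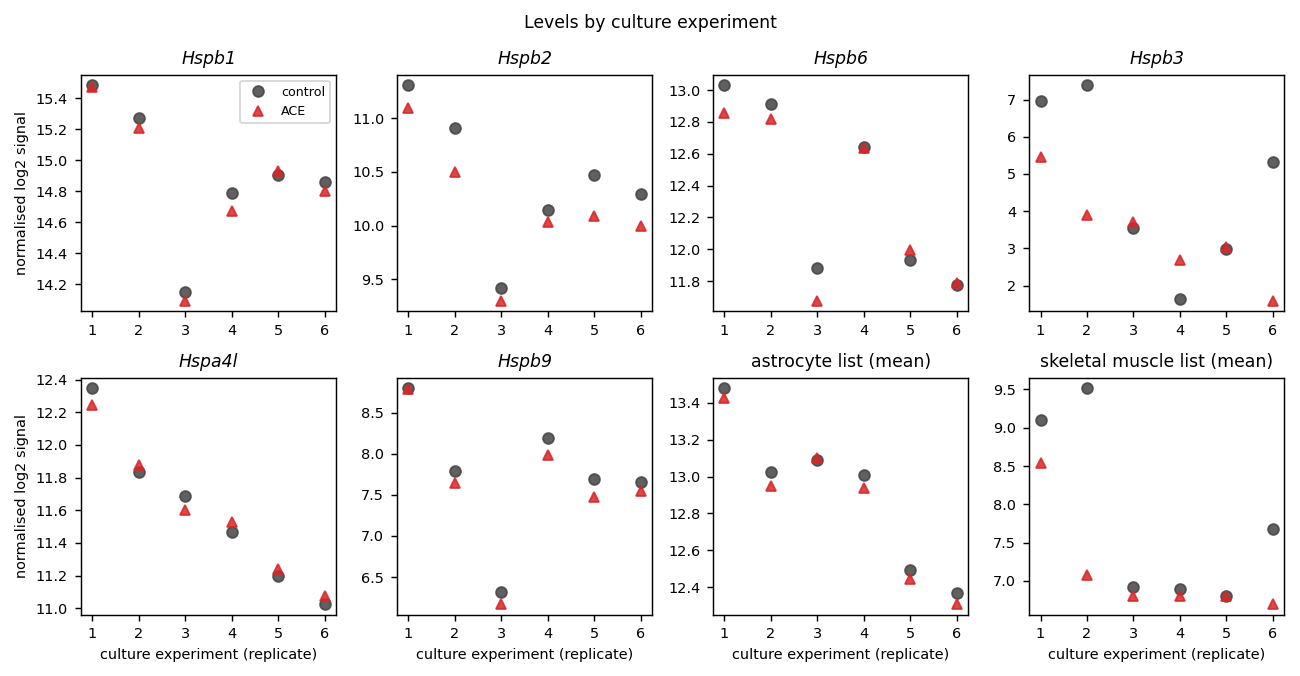
Normalised log2 signal by culture experiment (control circles, ACE triangles) for 6 members and for the means of the astrocyte and skeletal muscle marker lists; each panel has its own axis. The 2 symbols of an experiment lie close together relative to the spread between experiments in all panels but those of Hspb3 and the muscle list, where replicates 1, 2 and 6 separate.

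Of the genes of related folding and degradation pathways, none passed the adjusted limma threshold. Of 22 tested HSP90 and HSP70 co-chaperone genes that the name rule does not take, 2 of 27 probes were higher and 1 lower at an unadjusted p under 0.05 (11.1% together, beside 16.6%). Among them were Fkbp5 (0.13), an HSP90 co-chaperone of the glucocorticoid receptor, and Tomm70a (-0.06), the mitochondrial import receptor that docks HSP70 and HSP90. A second Tomm70a probe had the opposite mean (0.04), with 3 pairs higher and 3 lower. The list holds Unc45a (-0.05), an HSP90 co-chaperone for myosin, but not its muscle form Unc45b, which stands in the skeletal muscle list and is named here after its values were seen. Unc45b read 7.08 in control and 6.23 in ACE cultures on average and was lower in 6 of 6 pairs, by 0.85 on the log2 scale, at a limma p of 0.0430 (adjusted p 0.285). The muscle list as a whole had the same direction, and its part in this value was not tested. Of 13 tested genes of the cytosolic chaperonin CCT and prefoldin, which fold actin and tubulin, 0 of 16 probes were higher and 3 lower (18.8%, beside 9.73% of all probes), and among these 3 1 Cct6a probe (-0.07) was lower in 6 of 6 pairs, while a second Cct6a probe (-0.05) had 3 pairs higher and 3 lower. Of the 25 tested probes for 22 genes of endoplasmic reticulum folding and the unfolded protein response, 3 were higher and 1 lower, or 16% together, beside 16.6% of all probes. The stress factor Ddit3 (CHOP) was higher in 6 of 6 pairs by 0.11 ± 0.03 (SE), at a limma p of 0.00418 (adjusted p 0.158), and Sel1l, a subunit of the degradation complex there, by 0.11 ± 0.03 (SE). A second Sel1l probe (0.10) was higher in 4 of 6 pairs. The 1 lower call was Chac1 (-0.12, lower in 5 of 6 pairs), which is named here after its values were seen. Hspa5, Hsp90b1 and Dnajc3, members of the same response, differed by -0.02, -0.02 and 0.02.

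For the proteasome and the clearance of aggregates, 21 genes were tested, and 1 of 22 probes was higher (beside 6.9% of all probes) and 5 lower (22.7%, beside 9.73%) at that level. Psmd11 (-0.17), Psma3 (-0.13) and Psma2 (-0.09), all proteasome subunits, were lower in 6 of 6 pairs, and the mean of the list was lower in 6 of 6 pairs by 0.01 to 0.07. Of 10 tested genes of mitochondrial folding and proteolysis, 0 of 11 probes were higher and 2 lower (18.2%, beside 9.73%). The medians of these 5 lists lay between -0.04 and 0.02, beside -0.02 for the heat shock members and -0.00 for all probes.

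**Figure D5:**
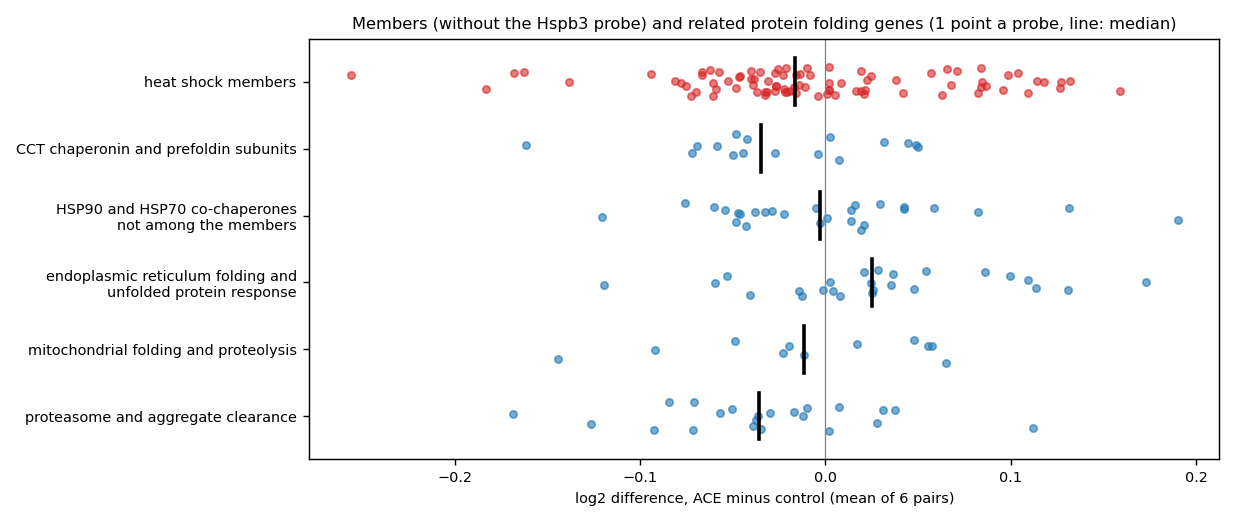
CvA difference (ACE minus control, log2 scale, mean of 6 pairs) of each tested probe of the heat shock members, without Hspb3 at -1.24, and of the 5 related lists; vertical bars mark medians, that of the members being -0.02. All points of the 6 rows lie between -0.26 and 0.19.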

How the data were processed

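Gene expression of 12 cultures was measured with 1-colour (Cy3) Agilent arrays. Per the file headers, the authors extracted each spot's intensity with Feature Extraction (version 11.0.1.1 for replicate 1, 11.5.1.1 otherwise), with background subtracted and each array left unscaled. A second table that the authors deposited holds log2 values, quantile normalised and centred per probe, which correlated at 0.997 to 0.999 per array with those computed here (column medians -0.02 to 0.02) and served as an alternative. The 75th percentile of the intensity ranged from 1803 to 4384 per array, and 75.4% to 91.0% of spots were well above background. The number of arrays limits the precision.

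Control spots were left out and outlier spots set to missing. The log2 intensity was quantile normalised over the arrays and spots of a probe averaged. Probes above the 20th percentile of their array on at least 7 arrays, with at least 4 complete pairs, were tested in limma 3.58.1 (R 4.3.3, lmFit and eBayes, two-sided) with the replicate number as a fixed block and with Benjamini-Hochberg adjustment over 23796 probes. In the study's methods each experiment used 1 lot of cells for every group. A replicate number was taken to mark an experiment, and arrays of a number deviated together (0.449 to 0.912, other numbers -0.439 to 0.390). Arrays of a number also shared a slide, a scan batch and an extraction version. Their deviating together therefore cannot tell the culture experiment from these. The p-values rest on the spread of the ACE minus control differences of these 6 pairs, since the block removes level differences between the experiments. The fit was first tested on simulated data with independent noise for each probe, which does not cover effects shared by the probes of an array.

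The members, gene lists and tests were chosen with earlier results of these data known. Named singly were members with an unadjusted p under 0.05 and 1 direction in 6 pairs (up to 10 each way), 21 genes fixed by role (20 of them with a member probe), the 5 members with the largest SD between control arrays, and genes whose probes had opposite means. Of related pathway genes, up to 3 a list with an unadjusted p under 0.05 and 1 direction in 6 pairs were named, and 1 such gene is not reported here. Of the 75 gene names, 70 were matched to RefSeq by accession and the others by symbol. Alternatives covered scaling, background, filters, outlier spots, array weights, the block, the scan batch and single replicates. Figures were drawn with matplotlib 3.10.9.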

Additional observations from a re-analysis of the deposited data

Results flagged for a closer look

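In 6 of 114 groups of 6 arrays (the named member probes in control and in ACE), the highest or lowest array lay far from the nearest other by Dixon's criterion at 95%, where chance alone flags about 5.7 groups, or 1 in 20. Dnajc16 was highest in replicate 1 of both groups, at 8.00 in control and 7.99 in ACE, where the next arrays read 7.61 and 7.53. Replicate 1 also held the highest control array of an Hspa8 probe, at 14.50 against 14.19 for the next, with 14.48 on the ACE array of the same pair. The lowest control array of Dnajc22 was again that of replicate 1, at 8.91 against 9.66, with 9.24 on the paired ACE array. In ACE replicate 3, an Hsp90ab1 probe was lowest at 14.19, against 14.48 for the next array, and Hsf4 was lowest at 6.77, against 6.90. In both cases the control array of replicate 3 was the lowest of its own group too, at 14.32 and 6.91.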

How the results depend on the processing

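The count of members past the adjusted threshold was 0 under every alternative tried, including the deposited values, no filter and each replicate left out. The count of higher members at an unadjusted p under 0.05, which was 9, was 4 under scaling by the 75th percentile, 0 without the replicate block, 2 with pairs 3 to 5 only, and 2 (without replicate 2) to 12 (without replicate 1) when a replicate was left out (5, 5, 4 and 3 without replicates 3, 4, 5 and 6). The count of lower members, which was 8, was 11 under scaling by the 75th percentile, 1 without the replicate block, 4 with the block as a random effect, 2 with pairs 3 to 5 only, and 5 (without replicate 4) to 7 with a replicate left out. These are counts under each setting, not necessarily of the same probes. Of all probes, 6.9% were higher at that p, and 3.39% under scaling by the 75th percentile. This share was 0.185% without the block, 2.51% with pairs 3 to 5 and 4.89% to 6.99% with a replicate left out. The lower share of all probes, which was 9.73%, was 14.3%, 0.155%, 4.26% and 6.93% to 10.8% in the same order, and 8.98% with the random block. Without the block, 0.34% of all probes were under that p. The 11 of 89 members with 1 direction in all pairs (12.4%, beside 11.6% of all probes) became 44 in the scan batch of pairs 4 to 6, beside 42.7% of all probes. In pairs 3 to 5 they became 31, beside 30.9%, where fewer pairs have to match. With a replicate left out they numbered 12 to 22 (without replicate 1), beside 14.3% to 18.9% of all probes. With the signed-rank p adjusted over all probes 0 were left, a threshold that this p can hardly reach with 6 pairs. The members' median difference was -0.033 under scaling by the 75th percentile (all probes -0.034) and -0.0049 with the deposited values (all probes 0.0071). It was -0.0025 with pairs 3 to 5 only (all probes -0.0041), and -0.019 to -0.013 with a replicate left out (all probes -0.0072 to -0.0037). The setting of pairs 3 to 5 was chosen after seeing the data. No named member that was under the unadjusted threshold took the opposite direction under any alternative, but the unadjusted call was lost in 12 of 17 settings for Dnajc28, 11 for Dnajc25 and Dnajc17, 11 of 16 for Dnajb8, 10 for Dnajc16, 9 for Dnajc14, 8 for Dnajb3 and Dnajc22, 7 for Dnajb12, 6 for Hspa8, 4 for Dnajc9 and Hsp90ab1, 2 for Hspb2, Bag6 and Hspb9, 1 for Bag3 and 0 for Hsf4. Of 679 comparisons of the other named values, 47 had the other sign and 16 passed that p, and 9 of 392 list medians moved beyond their spread. Signal over background limits Hspb3, Dnajb8 and the 8 probes that were not tested.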
